A study of Mus musculus with 8 samples.

Results

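The keratins described here are 10 genes of the mouse epidermis, out of 21690 genes in the expression table. They were taken by name: the basal keratins Krt5, Krt14 and Krt15, and the suprabasal or infundibular keratins Krt1, Krt10, Krt2, Krt77, Krt78, Krt79 and Krt80. All 10 identifiers were found through their symbols. RNA was sequenced from back-skin epidermis of pups at postnatal day 5, in 4 control and 4 experimental libraries labelled as biological replicates. Control pups were Esrp1flox/flox; Esrp2-/-, and experimental pups were K5rTA tetOCre Esrp1flox/flox; Esrp2-/-. Dams of both groups were fed high-dose doxycycline chow from embryonic day 17 on. Both groups therefore lacked Esrp2 by genotype, and the controls carried neither transgene. The Cre depends on doxycycline and on a transactivator named for keratin 5, so it is directed to cells that use that promoter and their descendants. The comparison is of the added deletion of Esrp1, which encodes an epithelial splicing regulator, together with any effect of the transgenes.

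Keratins are the intermediate filament proteins of epithelial cells. Each filament is built from heterodimers of a type I and a type II keratin, so the genes are used in pairs. Cells of the basal layer of the epidermis, which divide and rest on the basement membrane, make the pair KRT5 and KRT14. When a cell leaves that layer it switches to KRT1 and KRT10, the pair of the spinous layer, and the keratin content of a sample is widely used to read how its cells are divided between these layers.

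The 3 type I genes lie in the keratin cluster on chromosome 11, and the 7 type II genes lie in the cluster on chromosome 15, all on the minus strand (GRCm38). Keratin genes resemble each other over the part that encodes the central rod, which bears on how reads can be assigned. For this reason the most similar stretches of 60 coding bases are shown for a pair of type I members, read from the GENCODE M21 transcripts (GRCm38) with bases that differ in capitals. In Krt14 and Krt15 these were bases 679 to 738 and 613 to 672 of the coding sequence, counted from the start codon.

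Krt14: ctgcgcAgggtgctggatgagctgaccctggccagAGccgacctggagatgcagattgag
Krt15: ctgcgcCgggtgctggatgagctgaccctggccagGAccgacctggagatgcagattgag

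These stretches differed at 3 of 60 bases. The most similar stretch of Krt14 and Krt10 differed at 3 bases as well. Krt14 was also compared with Krt16, the type I keratin of wounded epidermis, which is not a member. The longest identical coding run of these 2 genes was 134 bases, and bases 58 to 117 were identical in both.

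Krt14 and Krt16: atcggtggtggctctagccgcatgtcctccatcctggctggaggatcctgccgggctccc

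Counted over all annotated transcripts, 28.2% of the 31-base words of Krt14 also occurred in another gene, most often in Krt16 and Krt17. The share was 12.8% for Krt5, mostly with Krt6a, and 3.74% for Krt15. It was below 1% for each of the other 7 genes. The level of Krt14, and less so that of Krt5, can therefore depend on how the authors' counting divided reads among these copies. Transcripts annotated on the opposite strand overlap exons of Krt5, Krt10 and Krt80, and the sources used here do not say whether reads were counted by strand.

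Levels are given as TPM (a gene's share of all transcripts, scaled for transcript length, so genes can be set side by side). Values at or under 1 TPM are listed at 0. The number of libraries, 4 a group, limits the precision, since TPM keeps no sequencing depth and the depth was unknown. Esrp1 lay between 131 and 162 TPM in the controls and between 49.8 and 75.6 TPM in the experimental libraries. Esrp2, with null alleles in both groups, was listed at 0 in 1 control and between 2.14 and 5.28 TPM in the other 7 libraries. Of the epidermal markers, Krt10 ranked from the first to place 12 among all genes of a library. Of 8 fibroblast genes 4 were at 0 in every library and the list summed to at most 29.6 TPM. Of 13 endothelial, muscle, fat and blood genes 9 were at 0 throughout, and the others were the muscle actin gene Acta1 and haemoglobin genes. That list summed to 9021 TPM in control library 2, 3949 TPM in experimental library 2, 1541 TPM in control library 3 and 1366 TPM in experimental library 4, against 173 to 381 TPM in the other libraries, and its part in the keratin levels was not tested. Mitochondrially encoded genes took 10.6% to 12.6% of the listed TPM in 6 libraries, but 18.2% in experimental library 2 and 17.5% in experimental library 4.

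Keratin 15 was the one member called with all 8 libraries weighted alike. Krt15 encodes a type I keratin of basal cells and of the stem cells of the hair follicle (ENSMUSG00000054146.8; chromosome 11, 100131758 to 100135928). It stood at 1323, 1124, 876 and 184 TPM in control libraries 1 to 4 and at 48.9, 115, 169.9 and 97.7 TPM in experimental libraries 1 to 4. The groups did not overlap, but control library 4 lay close above experimental library 3. The mean fell 8.13-fold, from 877 ± 497 to 108 ± 49.9 TPM (SD, n = 4 each). On the log2 scale it fell by 2.82 (SE 0.59), with an adjusted p of 0.0361 in limma, and was lower in 4 of 4 experimental libraries than in any control. With 4 libraries a group no exact permutation test can go below p = 0.0286 (two-sided), and Krt15 reached that value. The call rested on the whole set: it held without control library 4 (adjusted p = 0.00066) and was lost when any other single library was left out (limma adjusted p from 0.0576 to 0.110). It was also lost with each library centred on its median (limma adjusted p = 0.051), and of 21 alternatives 9 kept it. Those 9 include a fit with library weights, which called 41.4% of all genes tested. They also include a fit without control libraries 3 and 4, a division made by basal keratin levels. Several others changed only the pseudocount, filter, variance trend or floor, so the 9 are not independent checks. In bulk tissue, fewer cells of a type and less RNA per cell cannot be told apart. The authors' deposited differential table, from this same series, lists Krt15 (log2 fold change -2.73, adjusted p = 5.6e-06 in DESeq) and none of the other 9 keratins. It holds only lower genes, so a keratin that rose could not appear in it.

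Of the 10 members 9 were tested, since Krt2 was under the filter of a mean of 1 TPM, and 1 was called by limma at an adjusted p under 0.05. By the same rule 263 of all 10682 tested genes, or 2.46%, were called. The groups did not overlap for 2 of the 9 members, Krt15 and Krt1, while 12.6% of all tested genes showed no overlap. The median log2 change was -0.30 over the 9 members and -0.18 over all tested genes. These changes are on the log2(TPM + 1) scale. The plot of levels by library shows the 9 tested genes.

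**Figure D1:**
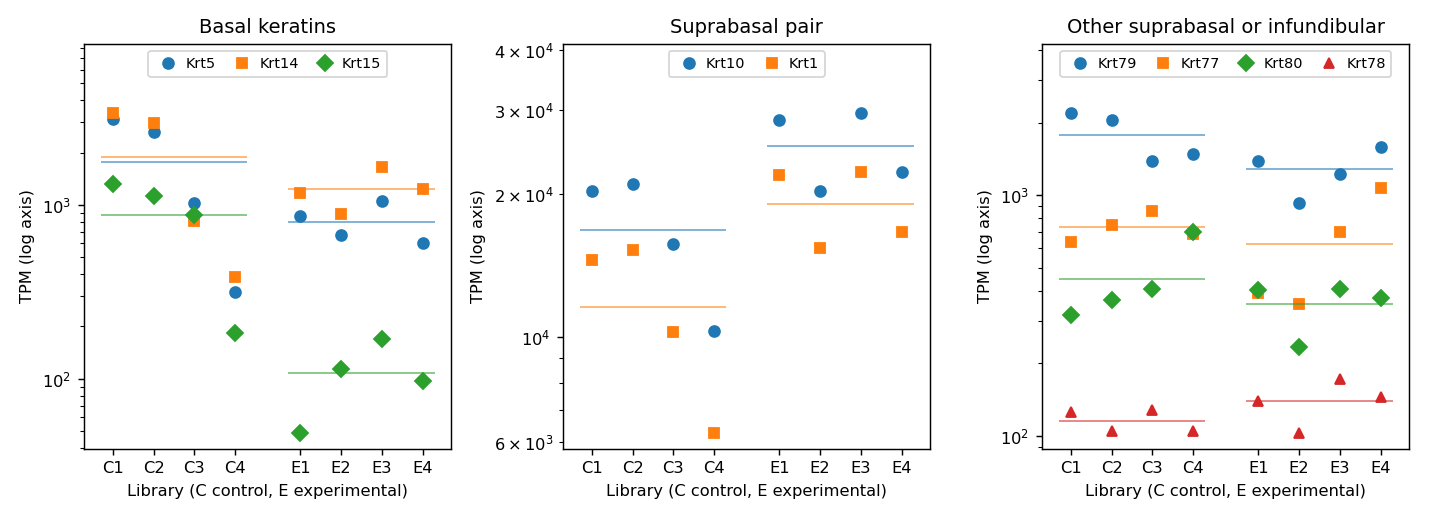
TPM of 9 keratin genes (log axes, a panel for the basal genes, the suprabasal pair and the others) in control libraries C1 to C4 and experimental libraries E1 to E4; each point is a library and each line a group mean. Krt5 and Krt14 spread 9.82-fold and 8.74-fold among the controls, Krt15 is lowest in the experimental libraries, and Krt1 is higher in all 4 experimental libraries than in any control.

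The basal pair did not pass the test with all libraries weighted alike, and its controls differed among themselves more than the groups did. Krt5, the type II keratin of basal cells (ENSMUSG00000061527.7; chromosome 15, 101707070 to 101712898), read 3102, 2617, 1020 and 316 TPM in the controls and 858, 673, 1047 and 606 TPM in the experimental libraries. All experimental libraries lay inside the control range. Its log2 change was -0.71, with a 95% interval from -2.07 to 0.66 (limma adjusted p = 0.576). Krt14, its type I partner (ENSMUSG00000045545.8; chromosome 11, 100203162 to 100207548), read 3387, 2953, 808 and 387 TPM in the controls and 1176, 890.5, 1656 and 1232 TPM in the experimental libraries. Its log2 change was -0.14, with a 95% interval from -1.502 to 1.23 (limma adjusted p = 0.926), and 0.07 with each library centred on its median. The interval reaches past a 2-fold change in both directions, so the data do not give a direction for Krt14. Control libraries 1 and 2 were above all 4 experimental libraries for both genes, and control library 4 was below all 4.

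Estimates for the basal pair depended on the weight given to single libraries. With 1 library left out, Krt5 lay between -1.38 (without control library 4) and -0.28 (without control library 1) on the log2 scale, and Krt14 between -0.73 (without control library 4) and 0.31 (without control library 1). None of these fits called either gene. With library weights, which limma estimates from how far each library lies from its group, Krt5 fell by 1.51 and Krt14 by 0.998 (limma adjusted p = 0.00294 and 0.0243). Those weights were 7.43 for control library 2, 1.07 for control library 1, 0.440 for control library 3 and 0.154 for control library 4, and that fit called 41.4% of all genes tested. A pair of further fits kept only the controls high in Krt5 and Krt14 (libraries 1 and 2) or only the others. The log2 changes were then -1.87 and -1.39, or 0.45 and 1.11. Since these controls were divided by the levels of the same genes, the direction follows from the division and no test is given.

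**Figure D2:**
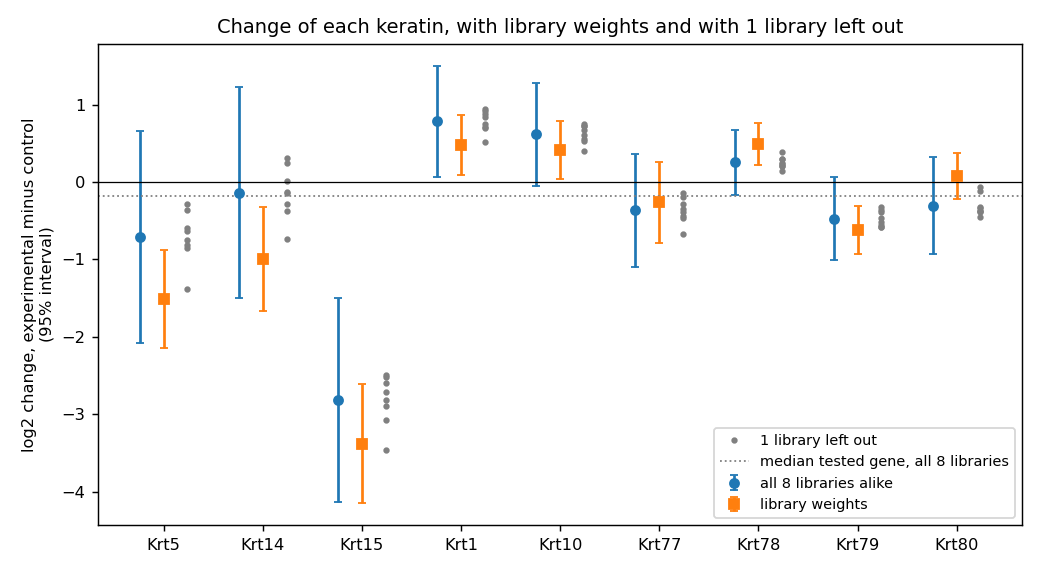
log2 change (experimental minus control, on log2(TPM + 1)) of 9 keratin genes with all 8 libraries weighted alike and with library weights, each with its 95% interval, and the 8 estimates with 1 library left out as grey points; the dotted line is the median tested gene at -0.18. The grey points of Krt14 lie on both sides of 0, those of Krt5 run from -1.38 to -0.28, and those of Krt15 from -3.46 to -2.49.

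Other gene groups varied with the basal keratins across the controls. The 3 basal keratins summed to 7812, 6695, 2704 and 887 TPM in control libraries 1 to 4 and to between 1678 and 2873 TPM in the experimental libraries. Of 20 listed genes of the basal layer other than keratins, such as the integrins and collagen XVII of the hemidesmosome, 18 were in the table. Their sum was 725, 549, 383 and 135 TPM in the controls and 285 to 383 TPM in the experimental libraries. Of these 18 genes 1 passed the test, against 2.46% of all tested genes. It was Igfbp3, an insulin-like growth factor binding protein gene, at 12.6 ± 6.49 and 2.59 ± 0.95 TPM (SD, n = 4 each, limma adjusted p = 0.0377).

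Cell cycle genes and hair follicle keratins also differed widely among the controls, in opposite directions. The 20 cell cycle genes summed to 461, 301, 109 and 48.6 TPM in the controls and to between 132 and 144 TPM in the experimental libraries, and of the 19 tested none passed in limma, or had an unadjusted p under 0.05. The 20 hair follicle keratins in the table summed to 7180, 15506, 26752 and 49647 TPM in the controls and to between 1657 and 12076 TPM in the experimental libraries. All 20 had log2 changes below 0 (median -2.08), 14 had an unadjusted p under 0.05 in limma, and none passed over all genes. Among all 10682 tested genes 1810 had an unadjusted p under 0.05 in limma. The control library with the least basal keratin had the most hair keratin and the lowest cell cycle sum. The part of these groups in the keratin levels was not tested. The labels used here name no batch, litter or dissection that separates the controls. Sebaceous gland genes summed to 644, 573, 242 and 231 TPM in the controls and to between 139 and 192 TPM in the experimental libraries. All 11 tested had log2 changes below 0 (median -1.31), and 5 had an unadjusted p under 0.05 in limma. Among these 11 genes 1 passed, against 2.46% of all tested genes. It was Elovl3, a fatty acid elongase gene, which fell from 61.8 ± 8.36 to 16.2 ± 8.45 TPM (SD, n = 4 each, limma adjusted p = 0.0116). None of 7 melanocyte, 10 immune cell, 1 fibroblast and 3 endothelial, muscle, fat or blood genes tested passed in limma, and 1 of them, an immune cell gene, had an unadjusted p under 0.05.

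**Figure D3:**
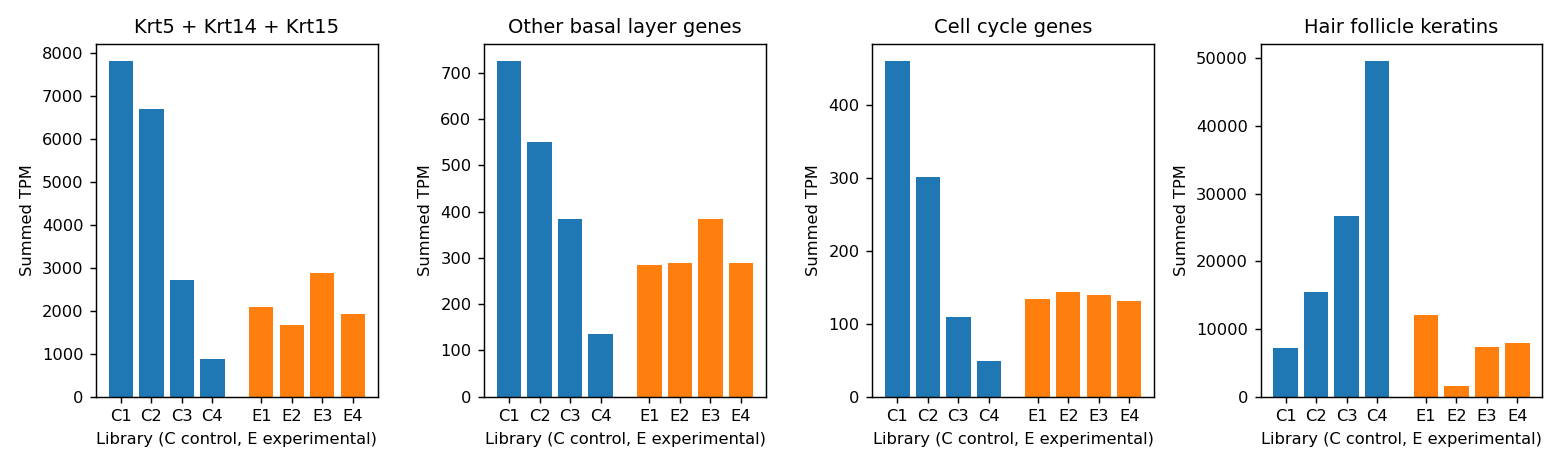
Summed TPM (bars, linear axes from 0) of the 3 basal keratins, of 18 other basal layer genes, of 20 cell cycle genes and of 20 hair follicle keratins in control libraries C1 to C4 and experimental libraries E1 to E4. The first 3 sums are highest in C1 and lowest in C4, and the hair keratin sum is lowest in E2 and highest in C4.

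Ratios within a library do not depend on how its values were scaled, and they separated Krt15 from its neighbours in the basal layer. Krt15 transcripts per Krt14 transcript were 0.391, 0.381, 1.08 and 0.474 in the controls and 0.0416, 0.129, 0.103 and 0.0794 in the experimental libraries. Each control was above each experimental library, control library 4 included. The mean log2 ratio was -0.93 ± 0.71 in controls and -3.62 ± 0.70 in experimental libraries (SD, n = 4 each). The difference of -2.69 became -2.25 with controls 3 and 4 left out and -3.14 with controls 1 and 2 left out. The controls were divided by their Krt5 and Krt14 levels, and Krt14 is part of the ratio. The values of these divided sets are therefore no independent check. Taken alone, Krt15 changed by -2.82 and Krt14 by -0.14, so most of the difference is that of Krt15 itself. Of all other tested genes 0.833% had a ratio to Krt14 whose groups did not overlap. Against Krt5 the ratio of Krt15 was 0.426, 0.430, 0.859 and 0.581 in the controls and 0.0570, 0.170, 0.162 and 0.161 in the experimental libraries, again without overlap, against 1.18% of all other tested genes. Krt15 made up 16.8% to 32.4% of the summed basal keratin TPM in the controls and 2.35% to 6.83% in the experimental libraries. Of 9 ratios computed between members, 6 did not overlap between the groups. Those of Krt14 to Krt10, Krt77 to Krt1 and Krt80 to Krt10 overlapped. Krt14 per Krt10 transcript was 0.0377 to 0.167 in the controls and 0.0412 to 0.0560 in the experimental libraries. Ratios are descriptions here and carry no test.

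Within the basal pair the balance also differed. Krt5 transcripts per Krt14 transcript were 0.916, 0.886, 1.26 and 0.815 in the controls and 0.729, 0.756, 0.632 and 0.492 in the experimental libraries. The groups did not overlap, as for 0.833% of all other tested genes set against Krt14. The gap between control library 4 and experimental library 2 was small beside the spread within either group. The mean log2 ratio was -0.06 ± 0.28 and -0.64 ± 0.28 (SD, n = 4 each). Krt16, which shares coding sequence with Krt14, rose over the same libraries, from 107, 91.3, 43.9 and 30.2 TPM to 422, 254, 326 and 222 TPM (limma adjusted p = 0.0156). Its part in the reading of Krt14 was not tested.

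The suprabasal pair was the most abundant of the keratins and lay higher in experimental epidermis, without passing the test over all genes. Krt1, the type II keratin of the spinous layer (ENSMUSG00000046834.7; chromosome 15, 101845426 to 101850794), read 14478, 15218, 10207 and 6279 TPM in the controls and 21893, 15355, 22165 and 16607 TPM in the experimental libraries. The groups did not overlap, but control library 2 and experimental library 2 were nearly level. Its log2 change was 0.78 (SE 0.32, limma adjusted p = 0.247), with a 95% interval from 0.07 to 1.499 and an exact permutation p of 0.0286 that is not adjusted over genes. Krt10, its type I partner (ENSMUSG00000019761.10; chromosome 11, 99385254 to 99389364), read 20259, 20967, 15652 and 10269 TPM in the controls and 28584, 20206, 29564 and 22227 TPM in the experimental libraries. Experimental library 2 was below control libraries 1 and 2, so these groups overlapped. Krt10 differed by 0.62 on the log2 scale (95% interval -0.05 to 1.28, limma adjusted p = 0.330). Without control library 4 the log2 changes were 0.52 for Krt1 and 0.40 for Krt10, and with quantile normalization they were 0.53 and 0.16.

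Krt1 and Krt10 were the pair of members with the most similar levels across libraries. Their levels had a Pearson correlation of 0.997 over the 8 libraries, a description of libraries that share groups and scaling. Krt1 transcripts per Krt10 transcript were 0.715, 0.726, 0.652 and 0.611 in the controls and 0.766, 0.760, 0.7497 and 0.747 in the experimental libraries. The experimental values spanned a narrow range above all controls. Among the members the summed type I TPM was 1.13 to 1.24 times the summed type II TPM in controls and 1.16 to 1.22 times in experimental libraries. Krt10 and Krt1 make up most of these sums, but the ratio of the sums did not follow that of the pair. Control library 4 had the lowest Krt1 per Krt10 (0.611) and also the lowest ratio of type I to type II (1.13). The ratio of the sums overlapped between the groups. The members held 81.5%, 70.8%, 51.4% and 27.7% of the TPM of all keratin genes in control libraries 1 to 4. That share was 77.5% to 90.9% in experimental libraries. Krt1 and Krt10 together made up 75.8% to 82.5% of the TPM of the 10 keratins in controls and 88.4% to 92.0% in experimental libraries. Of the other tested genes, 63.0% had a ratio to Krt1 and 55.1% a ratio to Krt10 without overlap between the groups, so groups that did not overlap were common among ratios to this pair.

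**Figure D4:**
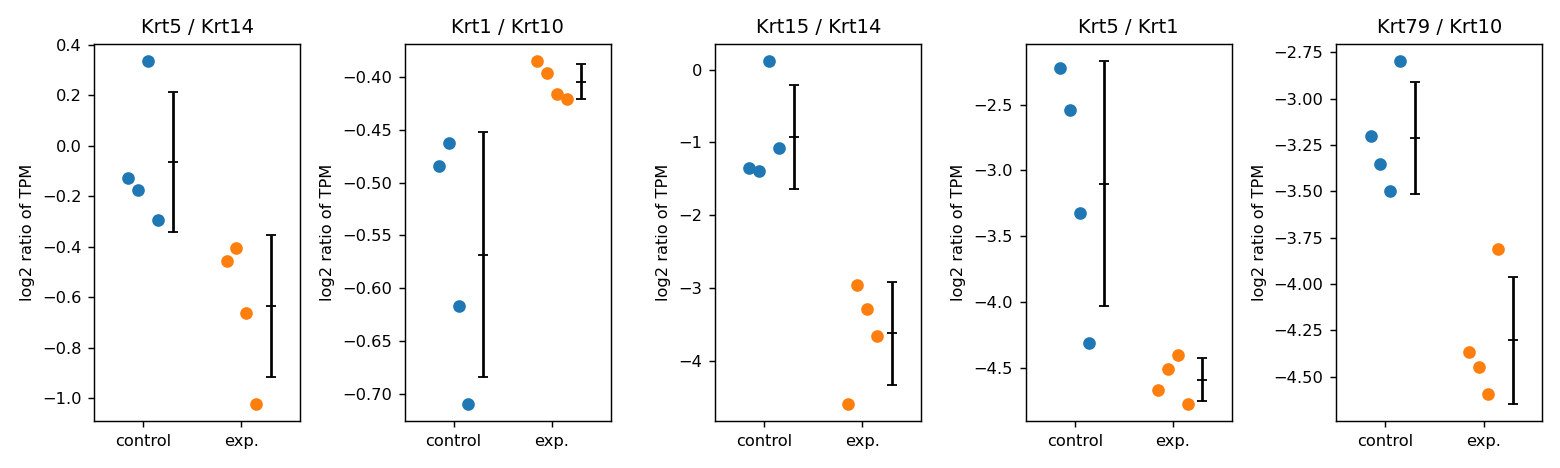
log2 ratio of TPM for 5 pairs of keratins in 4 control and 4 experimental libraries; points are libraries, and the bars give the mean with its SD. Krt15 per Krt14 and Krt5 per Krt14 are lower in all 4 experimental libraries than in any control, and Krt1 per Krt10 is higher.

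The other suprabasal and infundibular keratins did not pass the test with all libraries weighted alike. Krt79, a type II keratin of the infundibulum, the funnel of the hair follicle (ENSMUSG00000061397.8; chromosome 15, 101929332 to 101940324), read 2199, 2055, 1384 and 1477 TPM in the controls and 1384, 927, 1227 and 1585 TPM in the experimental libraries. Control libraries 1 and 2 were above every experimental library, and the other 2 controls lay within their range. Its log2 change was -0.47 (95% interval -1.01 to 0.06, limma adjusted p = 0.353) and fell by 0.62 with library weights (limma adjusted p = 0.00672), the fit that called 41.4% of all genes. Of 9 tested genes listed for the upper follicle none passed in limma and 2 had an unadjusted p under 0.05 (1810 of all 10682 tested genes did). Among them Gata6, a transcription factor of the upper follicle, had the lowest p, at 5.12 ± 0.77 and 2.81 ± 0.49 TPM (SD, n = 4 each, limma adjusted p = 0.065). Krt79 per Krt10 transcript was lower in all experimental libraries, 0.0415 to 0.0713 against 0.0884 to 0.144 in controls and, as given for ratios to Krt10, such a separation was found for 55.1% of other genes.

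Krt77, a type II suprabasal keratin that is also found in sweat ducts (ENSMUSG00000067594.6; chromosome 15, 101858731 to 101869705), varied more in the experimental group than among controls. It read 636, 753, 859 and 691 TPM in the controls and 391, 352, 700.3 and 1066 TPM in the experimental libraries. Experimental libraries 1 and 2 were below every control and experimental library 4 above every control, a 3.03-fold range against 1.35-fold. Its log2 change was -0.37 (95% interval -1.10 to 0.37, limma adjusted p = 0.590), and lay between -0.67 (without experimental library 4) and -0.14 (without experimental library 2) with 1 library left out.

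Krt80, a type II keratin of differentiating epithelia (ENSMUSG00000037185.9; chromosome 15, 101347444 to 101370162), went against the basal genes among the controls. It read 317, 365, 407 and 702 TPM in control libraries 1 to 4 and 402, 233, 407 and 373 TPM in the experimental libraries. Control library 4, lowest in Krt5 and Krt14, was highest in Krt80. Krt80 had a log2 change of -0.30 (95% interval -0.93 to 0.32, limma adjusted p = 0.599), which was -0.065 without control library 4, -0.12 without experimental library 2 and 0.07 with library weights.

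Krt78, a type II keratin of the upper layers (ENSMUSG00000050463.9; chromosome 15, 101946001 to 101954287), had the narrowest range of the tested members over the 8 libraries. It read 126, 104, 127 and 105 TPM in the controls and 139, 103, 172 and 145 TPM in the experimental libraries. The groups overlapped through experimental library 2, with a log2 change of 0.25 (95% interval -0.17 to 0.67, limma adjusted p = 0.519). It was 0.39 without experimental library 2 and 0.15 without experimental library 3. Krt78 rose by 0.49 with library weights (limma adjusted p = 0.0112), the fit that called 41.4% of all genes.

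Krt2, the type II keratin of late differentiation in thick or pigmented skin (ENSMUSG00000064201.8; chromosome 15, 101810689 to 101818169), was at the floor. It was listed at 0 in control libraries 2, 3 and 4 and experimental libraries 1 and 4, and at 1.94 TPM in control library 1, 2.03 TPM in experimental library 2 and 1.57 TPM in experimental library 3. It was under the filter, and no fold is given for it.

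Ordered by mean level over the 8 libraries, Krt10 (20966 TPM) was above Krt1 (15275 TPM) in 8 of 8 libraries, and Krt1 was above every other member. Krt14 (1561 TPM), Krt79 (1530 TPM) and Krt5 (1280 TPM) followed without a stable order, since Krt14 exceeded Krt79 in 3 of 8 libraries and Krt79 exceeded Krt5 in 6. Krt77 (681 TPM) exceeded Krt15 (492 TPM) in 1 control and in 4 experimental libraries. Krt15 exceeded Krt80 (401 TPM) in 3 of 4 controls and in none of the experimental libraries. Krt78 (128 TPM) was below Krt80, and Krt2 below Krt78, in 8 of 8 libraries. The neighbours that changed places were therefore those of the middle of the order, and Krt15 lay above Krt80 in most controls and below it in every experimental library.

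Genes outside the members with the most similar pattern were named by their Pearson correlation over the 8 libraries, with no p. For Krt15 these were Prkar2a, a regulatory subunit of protein kinase A (0.98), Smarcd2, a chromatin remodelling subunit (0.98), and Aagab (0.98). Smarcd2 read 58.1, 50.2, 47.3 and 33.5 TPM in the controls and 23.6, 25.4, 29.2 and 29.9 TPM in the experimental libraries, a far smaller range than that of Krt15. For Krt5 they were Macrod1, Pqlc3 and Cnih1 (0.99 each), and for Krt14 Kansl2, Idh3g and Polr2d (0.99 each). For Krt1 they were Skint1, an epidermal member of the butyrophilin-like family (0.99), Ptprz1 (0.98) and Sfn, the keratinocyte 14-3-3 protein sigma (0.98), and the same 3 genes came first for Krt10. Skint1 read 43.3, 42.4, 29.2 and 17.4 TPM in the controls and 62.1, 45.2, 55.1 and 47.2 TPM in the experimental libraries. For Krt80 they were Tspan6, a tetraspanin (0.99), Tgfa, a ligand of the EGF receptor (0.99), and Sema7a, a semaphorin (0.99). Tgfa read 19.5, 30.6, 44.7 and 116 TPM in the controls and 34.1, 11.4, 34.8 and 31.4 TPM in the experimental libraries, so control library 4 was high and experimental library 2 low, as for Krt80.

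Genes that work with these keratins were taken from lists. For comparison, 263 of all 10682 tested genes, or 2.46%, were called by limma. Of 15 tested suprabasal genes other than keratins 1 rose and 1 fell (median log2 change 0.35, against -0.18 over all tested genes). Of the 15, 11 had log2 changes above 0 and 8 had an unadjusted p under 0.05 in limma. Over all 10682 tested genes 1810 had such a p. The list's sum lay between 26502 and 31204 TPM in controls and between 37586 and 43258 TPM in experimental libraries. Calml3, a calmodulin-like epithelial protein gene, fell from 466 ± 20.9 to 163 ± 50.6 TPM, and Serpinb2, a serine protease inhibitor gene, rose from 76.0 ± 19.7 to 155 ± 31.9 TPM (SD, n = 4 each; limma adjusted p = 0.00847 and 0.0453). Of 14 tested granular layer genes none passed in limma and 3 had an unadjusted p under 0.05, and Ivl, which encodes involucrin, had the lowest p (406.8 ± 39.5 and 715 ± 156 TPM, limma adjusted p = 0.065). Of 19 tested regulators of keratin genes 1 rose, Grhl3, and 1 fell, Grhl1, a pair of grainyhead-like transcription factors (limma adjusted p = 0.0156 and 0.0077). Of the 19, 3 had an unadjusted p under 0.05 in limma. Of 17 tested linker and stability genes, most of them desmosome or hemidesmosome proteins, none passed in limma and 2 had an unadjusted p under 0.05. The plakophilin gene Pkp3 had the lowest p (206 ± 48.6 and 107 ± 29.9 TPM, limma adjusted p = 0.0844). Of 11 tested other epidermal and simple keratins none fell and 3 rose, among them Krt6b and Krt16 (limma adjusted p = 0.00383 and 0.0156). Of the 11, 5 had an unadjusted p under 0.05 in limma.

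The neighbours of the members on the chromosomes did not share one direction. Of 21 tested keratin genes of the chromosome 11 cluster 17 had log2 changes below 0 (Krt14 among them, which lies above 0 after centring), and of 21 on chromosome 15, Krt18 included, 15 did. Most of these are hair keratins. Krt14 lies between Krt15, with a log2 change of -2.82, and Krt16, with 2.28. Krt5 lies between Krt6a, with 0.62, and Krt71, a hair follicle keratin, with -1.49, among the tested genes.

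**Figure D5:**
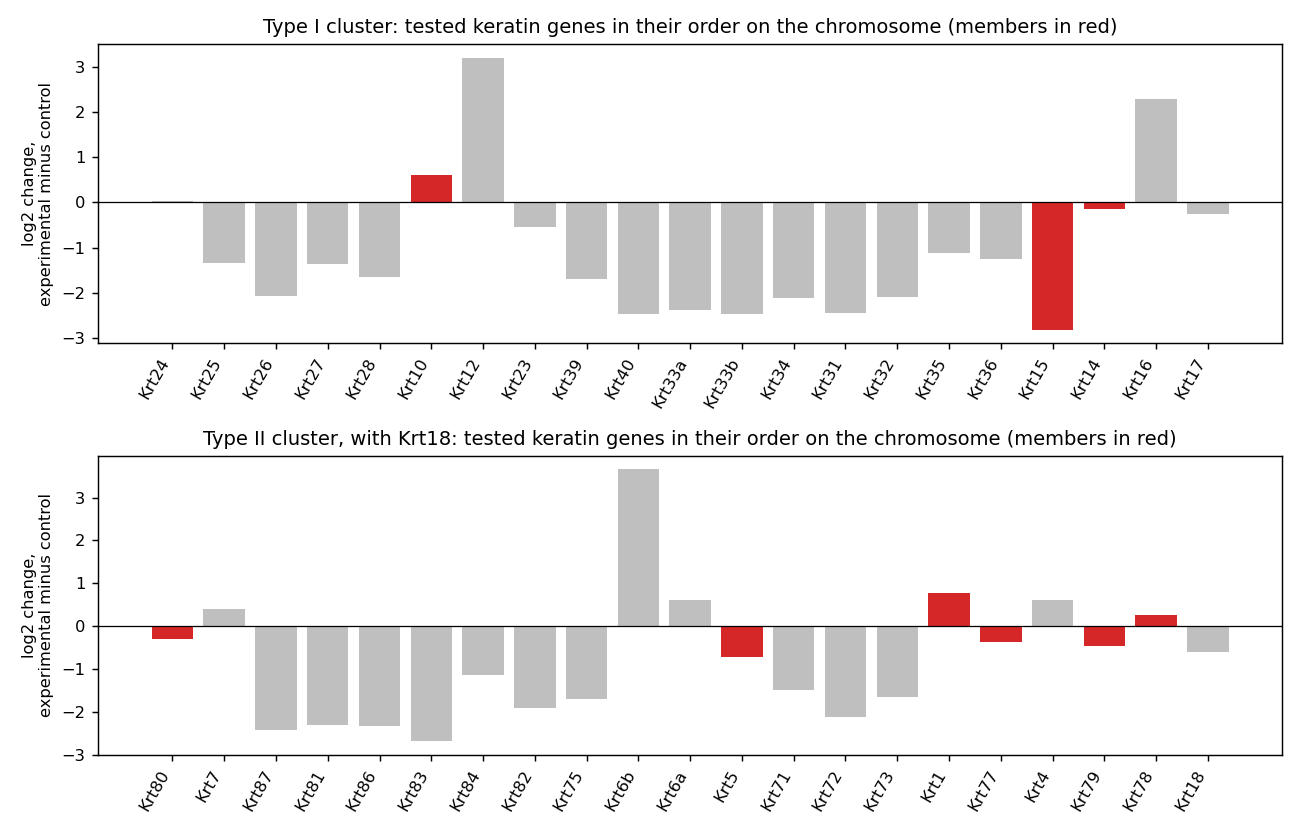
log2 change (experimental minus control) of the tested keratin genes in their order along the type I cluster (top) and the type II cluster with Krt18 (bottom), with the members in red and the other keratins in grey. Krt15 has the lowest value of the type I cluster, beside Krt14 at -0.14, and Krt10 and Krt1 are above 0.

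None of the 10 keratin genes appears in the authors' deposited table of changed splice junctions. That table covers 1203 junction entries and names what the authors selected, so it gives no splicing value for these genes here.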

How the data were processed

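Back-skin epidermis of 4 control and 4 experimental mouse pups was profiled by RNA-seq, with NEBNext Ultra libraries per the labels' protocols. Tools listed in the submitters' processing notes, with no role or order, are DESeq, Salmon 0.14.0, SAMtools 1.9 and STAR, and the builds are GRCm38 and mm10. The authors deposited log2 TPM without batch correction, in which entries that do not exceed 1 TPM appear as 0, and that scale was checked against their mean counts. The deposited differential table gives, per the file headers, a mean normalized count (signal), a log2 fold change, a score (the Wald statistic) and p-values. The deposited splicing table gives, per the file headers, the fraction spliced in and posterior scores for pooled groups. Neither was refitted.

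Columns were tied to groups by name. Their numbers match no replicate number in the labels. Libraries are numbered in table order. TPM was floored at 1, and genes with a mean of at least 1 TPM entered limma 3.58.1 (R 4.3.3) on log2(TPM + 1) with a variance trend and group as the only term, with Benjamini-Hochberg adjustment over all genes tested. The test was tried on simulated data first. The planned scale was log2(TPM + 1) as deposited, and the deposited values proved to be log2 TPM, so they were converted. Exact permutation tests were two-sided. The limma p-values set the group difference against the spread between libraries within groups, and the permutation p-values set it against other divisions of the same libraries. Shared words of 31 bases and coding positions came from GENCODE M21. The alternatives are another pseudocount, filter, scaling, trend, library weights and leaving out libraries.

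The 10 keratins and the gene lists were chosen with earlier results of these data known. Named are the 10 members, Esrp1 and Esrp2, up to 2 genes of each list past the threshold or else the one of lowest p, and for each member the 3 most correlated genes. The text does not give those of Krt77, Krt78 and Krt79.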

Additional observations from a re-analysis of the deposited data

Results flagged for a closer look

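In 36 groups of 4 libraries, 2 held a library whose gap to its neighbour was over the share of the group's range that marks an outlier. Chance gives about 1 such group in 20. Krt80 in experimental library 2, at 233 TPM against 373 to 407 TPM in the other 3, had a gap of 0.845 of the range on the log2(TPM + 1) scale. The log2 ratio of Krt15 to Krt5 in experimental library 1, at -4.13 against -2.63 to -2.56 in the other 3, had a gap of 0.951 of the range.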

How the results depend on the processing

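Of all genes 263 passed the threshold, and 4423 did so with library weights, 2595 without control libraries 3 and 4, 544 without control libraries 1 and 2, 15 without experimental libraries 2 and 4, and 85 to 578 when 1 library was left out. Centring each library on its median called 385 genes (283 higher, 102 lower) and quantile normalization 386 (269 higher, 117 lower), against 98 higher and 165 lower as deposited; centring moved the median gene from -0.18 to 0.03. The number of keratins past it was 1, and 0 with no filter, centring, quantile normalization or without experimental libraries 2 and 4. It was 5 with library weights, and 0 to 1 when 1 library was left out. The 5 with library weights were Krt78 (higher) and Krt5, Krt14, Krt15 and Krt79 (lower). Controls 1 and 2 are those high in Krt5 and Krt14, so fits that leave out either pair of controls fix the direction of Krt5 and Krt14. No count of keratins is given for those fits. Krt15 changed by -3.62 without control libraries 3 and 4 and by -2.02 without control libraries 1 and 2. The cause of the other moves was not tested.

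Krt15 was below 0 in all 21 alternatives and passed in 9, with limma adjusted p from 0.000135 to 0.345. Those 9 include library weights and the fit without control libraries 3 and 4, and are not independent checks. Krt5 was above 0 without control libraries 1 and 2 (0.45), -1.51 with library weights and -1.38 to -0.28 when 1 library was left out. Krt14 was above 0 with centring (0.0745), quantile normalization (0.0166), without control libraries 1 and 2 (1.11) and without experimental libraries 2 and 4 (0.0691), and ranged from -0.73 to 0.31 when 1 library was left out. Krt80 was above 0 with library weights (0.0744) and without control libraries 3 and 4 (0.0201). Krt1 and Krt10 were above 0 and did not pass in any of 21 alternatives, Krt10 at 0.16 with quantile normalization. The log2 ratio of Krt1 to Krt10 differed by 0.16, by 0.0693 without control libraries 3 and 4, by 0.26 without control libraries 1 and 2, and by 0.12 to 0.20 when 1 library was left out.

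No paired analysis was possible because the library numbers in the table match no replicate number in the labels. The depth behind TPM was unknown, and 4 libraries a group with a 9.82-fold spread of Krt5 among controls limit what can be detected.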
